A study of Homo sapiens with 6 samples.

Results

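CYP4F genes encode a subfamily of cytochrome P450 monooxygenases. RNA levels of its 6 protein-coding members, CYP4F2, CYP4F3, CYP4F8, CYP4F11, CYP4F12 and CYP4F22, were compared between KYSE450 cells and a KEAP1-deficient line made from them. Each gene was found by its symbol in a matrix of 58884 gene rows, and every one of the 6 symbols was present. The subfamily was picked out because its RNA differed between these same libraries, so the values of its members are given as a description, with no p-value.

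The data were 6 RNA-sequencing libraries, 3 from KYSE450 and 3 from KEAP1null-KYSE450. KYSE450 is an established line of human esophageal squamous cell carcinoma (ESCC), a cancer of the flat epithelium that lines the gullet, and it carries wild-type NRF2. KEAP1null-KYSE450 is a single clone derived from KYSE450 by CRISPR-Cas9 editing with a guide against exon 2 of KEAP1. Both lines were grown in RPMI1640 medium with fetal bovine serum and antibiotics and received no treatment. KEAP1 is the adaptor that sends the transcription factor NRF2, encoded by NFE2L2, for degradation, so the comparison asks which RNAs differ when that brake has been removed. An effect of KEAP1 loss and a trait of the clone cannot be told apart in this design. Nothing in the labels says that the libraries of a line came from separate cultures, so p-values measure the spread between these libraries, which may be technical.

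P450 enzymes of the CYP4F subfamily sit in the membrane of the endoplasmic reticulum and take electrons from NADPH through P450 reductase. They add a hydroxyl group at or next to the last carbon of a chain, the omega position, which is the first step in the breakdown of long-chain fatty acids, leukotriene B4 and other eicosanoids, and the side chains of vitamins E and K. They are best known from liver and kidney, from neutrophils, in which CYP4F3 inactivates leukotriene B4, and from epidermis, in which CYP4F22 makes the omega-hydroxylated lipids of the skin barrier.

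The 6 genes lie within 426 kb of chromosome 19 in the hg38 build. In order along the chromosome they are CYP4F22 (chr19:15508525-15552317), CYP4F8 (chr19:15615218-15630639), CYP4F3 (chr19:15640897-15662825) and CYP4F12 (chr19:15673018-15697174) on the plus strand, then CYP4F2 (chr19:15878023-15898077) and CYP4F11 (chr19:15912367-15934867) on the minus strand. KEAP1 is on the same chromosome, 5005 kb from the nearest of them. The genes are close copies of each other, and this bears on how well their reads can be told apart. A stretch of 60 coding bases around the cysteine that binds the heme iron shows how alike they are. Each stretch below lies inside 1 coding exon and is written 5′ to 3′ on the coding strand, with the cysteine codon starting at base 5. Capitals mark the bases that differ from CYP4F3.
CYP4F3 (chr19:15659220-15659279, plus): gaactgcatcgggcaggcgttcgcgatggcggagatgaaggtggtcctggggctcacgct
CYP4F2 (chr19:15878877-15878936, minus): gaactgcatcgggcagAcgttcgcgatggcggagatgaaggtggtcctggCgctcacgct
CYP4F8 (chr19:15629193-15629252, plus): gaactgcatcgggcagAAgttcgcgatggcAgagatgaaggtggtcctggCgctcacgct
CYP4F11 (chr19:15913850-15913909, minus): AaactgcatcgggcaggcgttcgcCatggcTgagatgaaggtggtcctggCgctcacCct
CYP4F12 (chr19:15696908-15696967, plus): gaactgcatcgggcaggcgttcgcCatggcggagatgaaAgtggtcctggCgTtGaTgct
CYP4F22 (chr19:15551294-15551353, plus): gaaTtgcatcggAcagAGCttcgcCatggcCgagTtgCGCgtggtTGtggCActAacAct

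CYP4F2 differed from CYP4F3 at 2 of these bases and CYP4F22 at 17, with CYP4F8 at 4, CYP4F11 at 5 and CYP4F12 at 6. Over the whole coding sequence the closest pair was CYP4F2 and CYP4F3, 91.5% identical, while CYP4F11 was 86.1% identical to CYP4F3 and 88.9% identical to CYP4F2. CYP4F22 was the most distant, between 67.4% and 71.2% identical to the others. For the reads of 150 bases used in the study, 1.04% of the positions along the CYP4F2 transcript and 0.469% of those along CYP4F3 had an exact copy in another CYP4F transcript, pseudogenes included, and no position along the other 4 transcripts did. If up to 3 mismatches are let through, those shares are 29.8% for CYP4F2, 13.4% for CYP4F3 and 0% for the others. Only the main transcript of each gene was scanned, so exon bases outside it were not checked. That transcript holds 1714 of the 5090 exon bases of CYP4F12 and 2908 of the 7049 of CYP4F8. Along CYP4F11 the nearest relative was at least 7 mismatches away at every position, whereas some reads of CYP4F2 and CYP4F3 could be exchanged between that pair.

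The libraries held between 53027359 and 61543442 reads assigned to genes, and the values are normalized counts, in which the read count of a gene is divided by 1 scaling factor per library. A count of 3 reads corresponds to 2.77 to 3.21 normalized counts and was taken as the floor of detection, for counting error only. KEAP1 RNA was 5760, 5226 and 5146 normalized counts in KYSE450 and 5737, 4906 and 5317 in KEAP1null-KYSE450, so the lines overlapped (log2 fold change −0.02 ± 0.10 (SE), limma with Benjamini-Hochberg adjustment, adjusted p = 0.900), and the sign of that small difference turned with the scaling. These counts run over the whole gene and do not check a small edit inside an exon. NFE2L2 RNA was lower in KEAP1null-KYSE450 by less than the fold threshold (log2 fold change −0.47 ± 0.09, adjusted p = 0.000634). Across 16701 genes with a mean of at least 10 normalized counts, 2045 were higher and 999 lower in KEAP1null-KYSE450, where a call needed an adjusted p below 0.05 and a log2 fold change of 1 or more in size, so that 67.2% of the calls were higher. After quantile normalization the split was 1388 higher and 1289 lower, 51.9% higher. The squamous label held, with KRT5, KRT6A, KRT17, TP63, DSG3 and SFN all expressed. They summed to 324737 to 437878 normalized counts per KYSE450 library and 555756 to 693895 per KEAP1null-KYSE450 library. The higher sum came mostly from KRT5, with means of 208100 in KYSE450 and 568248 in KEAP1null-KYSE450. KRT6A (log2 fold change −4.70) and KRT17 (−4.85) fell, and 4 of the 6 estimates were below 0. CYP4F genes are prominent in hepatocytes and leukocytes, so markers of those cells were read in the same libraries. The 6 hepatocyte markers summed to 1.07 to 4.04 normalized counts in KYSE450 and 1.01 to 6.12 in KEAP1null-KYSE450, with FGB at 0 throughout. The 6 leukocyte markers summed to 0 to 19.2 and 4.08 to 12.1, with MPO and FCGR3B at 0. The 6 fibroblast markers summed to 622 to 853 and 349 to 436, nearly all from COL1A1, with COL1A2 at means of 0 and 0.308. In bulk RNA, fewer cells that express a gene and less RNA in each cell cannot be told apart.

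CYP4F11, CYP4F3 and CYP4F12 were higher in KEAP1null-KYSE450 than in KYSE450, by 83.1-fold for CYP4F11, by about 3286-fold for CYP4F3 and by at least 14.2-fold for CYP4F12. CYP4F2 and CYP4F22 stayed at or near the floor in both lines, and CYP4F8 had no read in any library. Both call thresholds were passed by those 3 genes, in a comparison in which 18.2% of all genes tested passed them and 12.2% passed in the higher and 5.98% in the lower direction. The lines did not overlap in any of the 3, as for 57.8% of all genes tested, 28.4% in the higher direction. Nothing is read from these counts, since the genes were chosen on these libraries, and CYP4F3 and CYP4F12 reached the minimum for testing only through their KEAP1null-KYSE450 values.

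CYP4F11 hydroxylates long-chain and 3-hydroxy fatty acids and vitamin K. It had 140, 149 and 110 normalized counts in KYSE450 and 13192, 10154 and 9802 in KEAP1null-KYSE450. It was the one member with a clear signal in both lines, and its lowest KEAP1null-KYSE450 library was still 66.0 times its highest KYSE450 library. The means were 133 ± 20.3 and 11050 ± 1864 normalized counts (SD, n = 3 each), and the log2 fold change was 6.37 ± 0.15 (SE). In reads this was 396 against 33974 over the 3 libraries of each line, a ratio of 84.1 with a 95% counting interval of 76.2 to 93.1 that covers counting error only.

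CYP4F3 is the leukotriene B4 omega-hydroxylase. Its normalized counts were 1.07, 3.03 and 1.86 in KYSE450 and 7902, 5653 and 6051 in KEAP1null-KYSE450. Every KYSE450 library was thus at 3 reads or fewer, and every KEAP1null-KYSE450 library held 5545 or more. The means were 1.99 ± 0.987 and 6535 ± 1200 normalized counts (SD, n = 3 each), with a log2 fold change of 11.13 ± 0.26 (SE). Because the denominator is 6 reads in all, the ratio of reads, 3286, has a wide counting interval of 1510 to 8956, and the fitted log2 fold change ran from 9.08 to 12.15 as the pseudocount, scaling and test were varied.

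CYP4F12, which hydroxylates arachidonic acid and some antihistamine drugs, had no read in any KYSE450 library and 33.2, 53.0 and 42.4 normalized counts in KEAP1null-KYSE450. The mean there was 42.9 ± 9.91 (SD, n = 3), from 36, 52 and 42 reads. Its level was low but the lines were separate in all 6 libraries. Set against the floor of 3 reads per library, it was at least 14.2-fold higher. The fitted log2 fold change, 5.43 ± 0.67 (SE), depends on the value added before taking logarithms and is not a bound.

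The other 3 genes gave almost no reads. CYP4F2, which hydroxylates vitamin K, vitamin E and arachidonic acid in the liver, had 4, 8 and 1 reads in KYSE450 and 3, 0 and 1 in KEAP1null-KYSE450. The lines overlapped and the gene was too low to be fitted. The summed reads were fewer in KEAP1null-KYSE450, unlike those of CYP4F3, the gene most similar to it. The KEAP1null-KYSE450 to KYSE450 ratio was 0.302, with a 95% counting interval of 0.0717 to 0.977. That interval leaves out the spread between libraries, and 8 of the 13 KYSE450 reads came from 1 library, so no direction is read from it. CYP4F22, the hydroxylase of ultra-long-chain fatty acids in epidermis, had 4 reads in a single KYSE450 library and none elsewhere. CYP4F8, a prostaglandin hydroxylase known from seminal vesicles, was at 0 in all 6 libraries, which at this depth allows up to 3 reads per library.

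**Figure D1:**
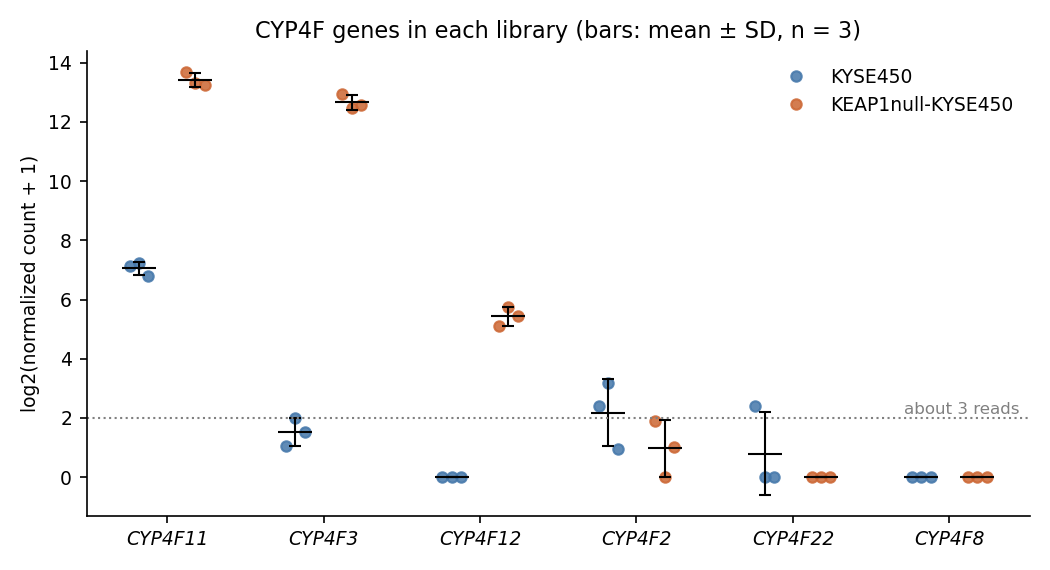
Level of each CYP4F gene in each library, as log2(normalized count + 1) on the vertical axis, for KYSE450 (blue) and KEAP1null-KYSE450 (orange). Points are libraries, bars show the mean and SD of the log2 values (n = 3), and the dotted line marks about 3 reads. CYP4F11, CYP4F3 and CYP4F12 separate by line, while CYP4F2, CYP4F22 and CYP4F8 lie near or under the line of 3 reads.

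Levels of different genes were compared per kilobase of exon. In KEAP1null-KYSE450 the order was CYP4F11 at 2966 ± 500.4 normalized counts per kb (range 2631 to 3542), CYP4F3 at 1185 ± 218 (1025 to 1432), CYP4F12 at 8.42 ± 1.95 (6.53 to 10.4) and CYP4F2 at 0.406 ± 0.452 (0 to 0.893), followed by CYP4F8 and CYP4F22 at 0. The first 4 did not overlap each other across libraries, and CYP4F2 could not be separated from the genes at 0. In KYSE450 the first was again CYP4F11, at 35.7 ± 5.44 per kb, and the genes after it, CYP4F2 at 1.43 ± 1.16, CYP4F22 at 0.546 ± 0.946 and CYP4F3 at 0.361 ± 0.179, overlapped. CYP4F3 thus stood in place 2 in the KEAP1-deficient line, and in the parental line it had no place apart from CYP4F2 and CYP4F22.

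CYP4F11 and CYP4F3 kept nearly the same proportion to each other in the 3 KEAP1null-KYSE450 libraries. The ratio of their levels per kb was 2.47, 2.66 and 2.40. Shares were taken of the summed normalized counts of the 6 genes and the 16 CYP4F pseudogene rows of the matrix. CYP4F11 made up 61.6% to 63.9% and CYP4F3 35.6% to 38.0% there, whereas in KYSE450 CYP4F11 alone made up 85.5% to 89.7%. The summed level, pseudogenes included, was 156, 174 and 126 normalized counts in KYSE450 and 21142, 15884 and 15904 in KEAP1null-KYSE450. In KEAP1null-KYSE450 it was 0.0285% to 0.0380% of the library. The 6 genes alone summed to 113 to 160 normalized counts in KYSE450 and 15860 to 21131 in KEAP1null-KYSE450. KEAP1null-KYSE450 library 1 was the highest of its line for both CYP4F11 and CYP4F3 and the lowest for CYP4F12. The 16 pseudogene rows stayed low in both lines. They summed to 6.42 to 14.2 normalized counts in KYSE450 and 7.06 to 23.4 in KEAP1null-KYSE450. At or below the floor in both lines were 13 of them, and none reached the minimum for testing. CYP4F26P had 5.35, 5.05 and 8.39 in KYSE450 and 0, 1.02 and 0 in KEAP1null-KYSE450, without overlap. CYP4F29P had means of 4.30 in KYSE450 and 10.2 in KEAP1null-KYSE450, with overlap.

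Against the other genes with a CYP symbol, the CYP4F pair moved to the top of the order. Genes were taken by that symbol, which leaves out P450 genes named otherwise, such as TBXAS1. Of 56 CYP genes ranked per kb, CYP4F11 was seventh in KYSE450 and first in KEAP1null-KYSE450, and CYP4F3 was second in KEAP1null-KYSE450. The leading CYP genes of KYSE450 were CYP2S1, an epithelial P450, at 1810 ± 382 per kb and CYP1B1, which oxidizes estrogens and polycyclic hydrocarbons, at 1560 ± 70.3 per kb. In KEAP1null-KYSE450 CYP1B1 stood at 776 ± 134 and CYP2S1 at 342 ± 102. The 6 CYP4F genes together were 0.930% of the summed CYP level per kb in KYSE450 and 69.3% in KEAP1null-KYSE450. Among all 16630 tested genes with a known length, CYP4F11 was above 28.5% in KYSE450 and above 95.8% in KEAP1null-KYSE450, where CYP4F3 was above 88.8%.

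**Figure D2:**
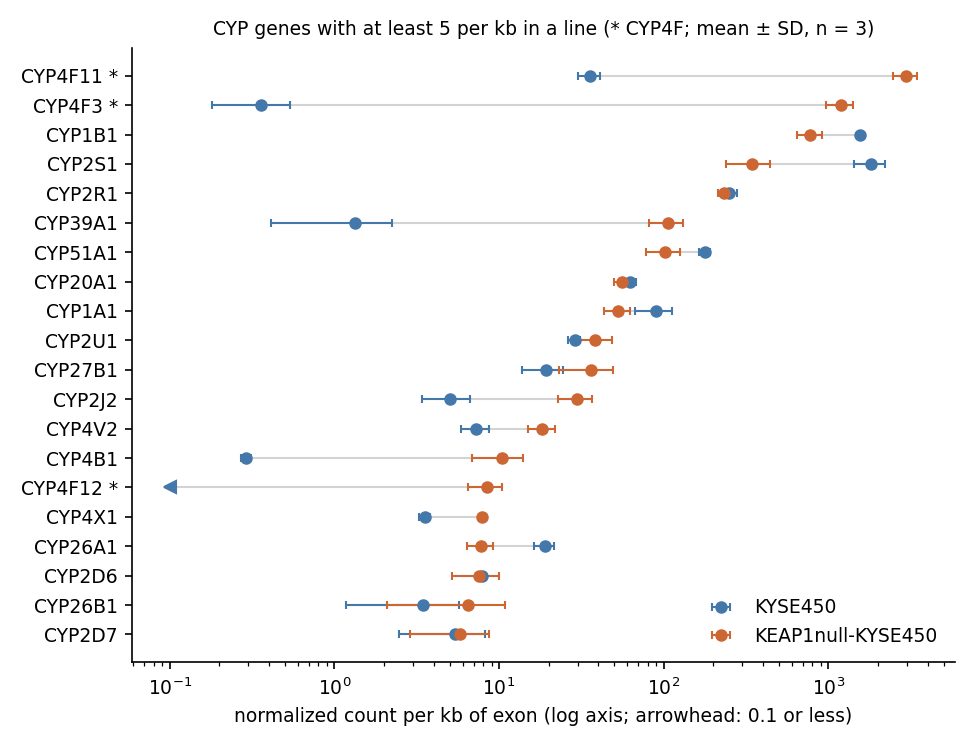
Levels of the genes with a CYP symbol that reached at least 5 normalized counts per kb of exon in a line, on a logarithmic horizontal axis, with asterisks on CYP4F genes. Points are means and bars the SD of 3 libraries, blue for KYSE450 and orange for KEAP1null-KYSE450, and an arrowhead marks a mean of 0.1 or less. CYP4F11 rises from 35.7 to 2966 per kb and CYP4F3 from 0.361 to 1185, while CYP2S1 and CYP1B1 are lower in KEAP1null-KYSE450.

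The test of the other 50 CYP genes, 17 of which were high enough, found 4 higher and 3 lower, with a median log2 fold change of 0.13 beside 0.00 over all genes tested. The share higher was 23.5%, beside 12.2% over all genes tested, of which 5.98% were lower. CYP39A1, a sterol 7-alpha-hydroxylase, rose from 4.13 ± 2.86 to 331 ± 78.9 normalized counts (log2 fold change 6.20 ± 0.47 (SE), limma adjusted p = 4.9e-07). With KYSE450 near the floor, that estimate ran from 4.585 to 6.74 over 15 alternatives. The other 3 that rose are fatty acid hydroxylases or epoxygenases and are described with that group. CYP2S1 fell by 2.42 on the log2 scale (adjusted p = 5.5e-07) and CYP26A1, which clears retinoic acid, fell by 1.25 (adjusted p = 0.00654). The CYP26A1 call was lost in the count tests on 4 libraries (edgeR −1.01, adjusted p = 0.130, and DESeq2 −1.04, adjusted p = 0.184) and with a pseudocount of 10. CYP1B1 fell by 1.02 (adjusted p = 1.8e-05), only just past the fold threshold. Over 15 alternatives its estimate ran from −1.16 to −0.83, and the call was lost in 7. Among those, it lay inside the fold threshold without KYSE450 library 1 (log2 fold change −0.98), without KEAP1null-KYSE450 library 2 (−0.93) or without KEAP1null-KYSE450 library 3 (−0.97), and in both count tests (−0.93 and −0.96).

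The genes around the cluster were read from the same libraries. Of 27 other protein-coding genes within 500 kb of the cluster, 14 were tested, and their median log2 fold change was −0.33. Both thresholds were passed by 1 higher and 1 lower gene, where 12.2% of all genes tested were higher and 5.98% lower. RASAL3, a Ras GTPase-activating protein of blood cells, was higher (log2 fold change 1.72 ± 0.65, adjusted p = 0.0420, from 5.75 to 20.3 normalized counts), and KLF2, a Krüppel-like transcription factor, was lower (−1.004 ± 0.30, adjusted p = 0.0155). Neither call was stable. RASAL3 lost its call in 9 of 13 alternatives, with estimates from 0.92 to 2.14. KLF2 lost its call in 6 of 14, with estimates from −1.44 to −0.73. Among those, RASAL3 missed the thresholds without KYSE450 library 2 (1.23), KYSE450 library 3 (1.79) or KEAP1null-KYSE450 library 2 (1.73), and KLF2 without KYSE450 library 2 (−0.73) or KEAP1null-KYSE450 library 1 (−0.92). Inside the cluster CYP4F3 and CYP4F12 lie side by side, with CYP4F8 at 0 on the other side of CYP4F3, and CYP4F11 lies next to CYP4F2, which was near the floor. The 4 olfactory receptor genes OR10H1, OR10H2, OR10H3 and OR10H5 between CYP4F12 and CYP4F2 were at or near 0 in both lines.

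**Figure D3:**
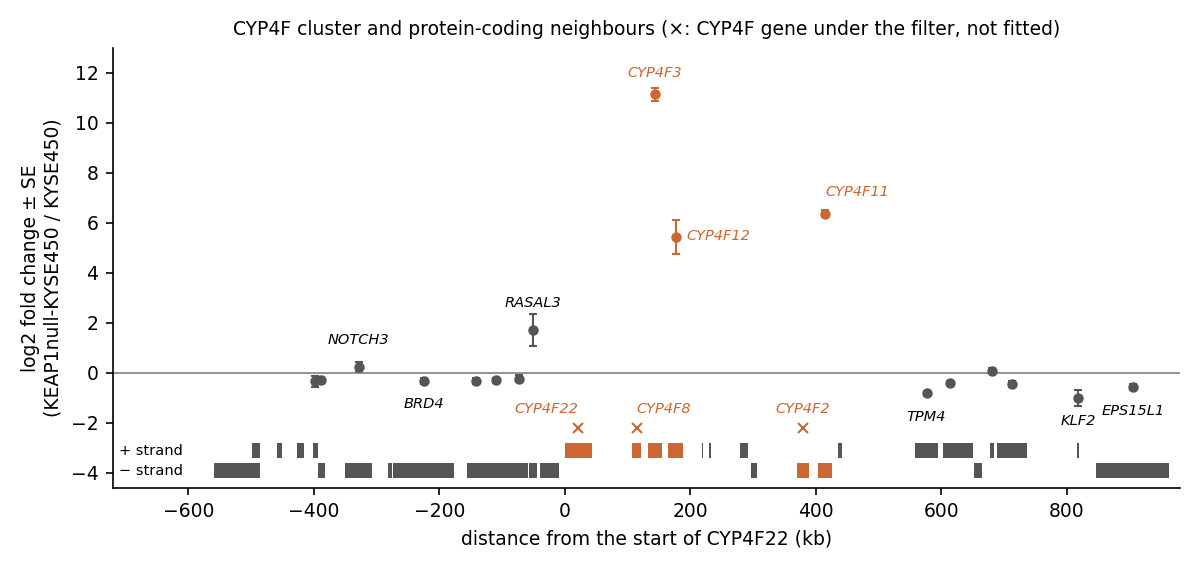
Map of the CYP4F cluster on chromosome 19, with the distance from the start of CYP4F22 in kb on the horizontal axis and the log2 fold change ± SE, KEAP1null-KYSE450 over KYSE450, on the vertical axis. Boxes are gene bodies on the 2 strands, orange for CYP4F genes and grey for neighbours, and crosses mark CYP4F genes too low to be fitted. CYP4F3, CYP4F12 and CYP4F11 stand between 5.43 and 11.13, and the tested neighbours lie between −1.004 and 1.72.

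The promoters of CYP4F11, CYP4F3, CYP4F2, CYP4F8 and CYP4F22 were searched for TGACNNNGC on both strands, the core of the antioxidant response element at which NRF2 binds with small MAF proteins. The 250 bases before the annotated start are shown for CYP4F11 and CYP4F3, the most abundant members, and for CYP4F8, which had no read. RefSeq sequences of GRCh38.p14 were used, with 6 promoters for 5 of the genes and no entry for CYP4F12, which was higher in KEAP1null-KYSE450. Capitals mark a match, here on the opposite strand.
CYP4F11 (chr19:15934868-15935117, minus): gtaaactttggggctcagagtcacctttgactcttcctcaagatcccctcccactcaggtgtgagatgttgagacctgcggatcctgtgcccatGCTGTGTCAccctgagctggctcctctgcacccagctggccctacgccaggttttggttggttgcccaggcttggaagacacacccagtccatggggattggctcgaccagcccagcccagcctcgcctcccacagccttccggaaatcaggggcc
CYP4F3 (chr19:15641062-15641311, plus): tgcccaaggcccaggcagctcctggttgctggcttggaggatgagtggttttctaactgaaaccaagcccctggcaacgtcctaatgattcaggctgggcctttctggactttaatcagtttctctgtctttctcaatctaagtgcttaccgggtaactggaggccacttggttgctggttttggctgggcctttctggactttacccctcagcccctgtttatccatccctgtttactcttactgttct
CYP4F8 (chr19:15614968-15615217, plus): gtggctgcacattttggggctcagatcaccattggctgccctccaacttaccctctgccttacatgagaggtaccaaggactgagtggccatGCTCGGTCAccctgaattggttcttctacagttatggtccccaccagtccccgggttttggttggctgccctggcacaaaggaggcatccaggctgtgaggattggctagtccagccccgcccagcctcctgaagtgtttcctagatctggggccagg

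CYP4F11 had a match that begins at position −156 from its first start and CYP4F8 one that begins at position −158. The CYP4F3, CYP4F2 and CYP4F22 windows and the second CYP4F11 start had none, and 10.9% of 35116 promoters held a match in a window of this length. With the 50 bases after the start included, CYP4F22 gained a match, which made 3 of 6 promoters, and the share over all promoters was 13.3%. The letters were therefore present before 1 gene that rose and 1 gene with no read, and absent in this window from CYP4F3. That CYP4F3 window precedes a RefSeq start and lies inside the gene body given above, which begins at chr19:15640897. The bases before that position were not searched. A match describes the letters and is not a measured binding site.

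The genes around the CYP4F reactions were read as lists of 90 genes in all. Of the 75 tested, 16 were higher and 6 lower, and their median log2 fold change was 0.05, beside 0.00 over all genes. Over all genes tested 12.2% were higher and 5.98% lower. No list was tested as a set against these shares. The other enzymes that hydroxylate or epoxidize fatty acids had the highest median of these lists. Of 8, 5 were tested, 3 rose and none fell, with a median log2 fold change of 1.33. CYP4B1, an omega-hydroxylase of medium-chain substrates, had 1.07, 1.01 and 0.932 normalized counts in KYSE450 and 22.1, 39.8 and 46.4 in KEAP1null-KYSE450 (log2 fold change 4.15 ± 0.62 (SE), adjusted p = 0.000142). Its KYSE450 values were below the floor, and it reached the minimum for testing only through KEAP1null-KYSE450. The estimate ran from 2.03 to 4.97 over 14 alternatives. CYP2J2, an arachidonic acid epoxygenase, rose from 14.9 ± 4.81 to 88.0 ± 20.6 (2.50 ± 0.36, adjusted p = 0.000102) and CYP4V2, a fatty acid hydroxylase of the eye, from 70.9 ± 13.9 to 179 ± 33.6 (1.33 ± 0.23, adjusted p = 0.000479, and 0.99 after quantile normalization, inside the fold threshold). Per kb of exon, all 3 remained below CYP4F11 and CYP4F3 in KEAP1null-KYSE450. CYP4A11 and CYP4A22, the classical omega-hydroxylases of liver and kidney, were at 0 in every library.

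The genes listed as electron donors and partner proteins of P450 enzymes did not rise with them. None of 8 tested genes passed both thresholds, which 18.2% of all genes tested did. All 8 estimates were below 0, and the median log2 fold change was −0.45. CYB5A (−0.87, limma adjusted p = 0.000252), CYB5R4 (−0.60), CYB5R3 (−0.50), CYB5B (−0.47) and CYB5R1 (−0.42, adjusted p = 0.00661) were lower at an adjusted p below 0.05, inside the fold threshold. POR, PGRMC1 and PGRMC2 were not below 0.05. POR, the P450 reductase of the endoplasmic reticulum, had 3867, 3452 and 3172 normalized counts in KYSE450 and 3555, 2433 and 2897 in KEAP1null-KYSE450, and the lines overlapped (log2 fold change −0.25 ± 0.13, adjusted p = 0.133). In heme synthesis 1 of 8 genes rose, which is 12.5% beside 12.2% over all genes tested. It was FECH, the ferrochelatase that inserts the iron. FECH went from 1996 ± 77.5 to 11037 ± 332 (2.47 ± 0.09, adjusted p = 3.8e-10). ALAS1, the first and rate-limiting step, stayed within the fold threshold at −0.49 ± 0.11.

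Of 20 genes that make, bind or break down leukotrienes and prostanoids, 15 were tested, 4 were higher and 3 lower, with a median log2 fold change of −0.03. The share higher was 26.7%, beside 12.2% over all genes tested, of which 5.98% were lower. Those that rose act on finished mediators or epoxides or make thromboxane. PTGR1, which inactivates leukotriene B4 and reduces 15-oxo-prostaglandins, had 2452, 2570 and 2510 normalized counts in KYSE450 and 45912, 45618 and 48906 in KEAP1null-KYSE450 (4.22 ± 0.09, adjusted p = 1.7e-12). HPGD, the 15-hydroxyprostaglandin dehydrogenase, rose by 3.08 ± 0.13 (adjusted p = 2.6e-09), EPHX2, the soluble epoxide hydrolase, by 1.85 ± 0.14 (adjusted p = 5.9e-07) and TBXAS1, thromboxane synthase, by 1.86 ± 0.33 (adjusted p = 0.000522). PTGS2, the inducible cyclooxygenase, fell from 1435 ± 114 to 62.7 ± 13.1 (−4.51 ± 0.17, adjusted p = 8.2e-10), and PTGES, the prostaglandin E synthase, fell by 1.98 on the log2 scale (adjusted p = 3.5e-06). ALOX12, the 12-lipoxygenase, fell by 1.18 (adjusted p = 0.0107), which dropped inside the fold threshold without KEAP1null-KYSE450 library 3 (−0.97) and with a pseudocount of 10. It missed both thresholds in the count tests on 4 libraries (edgeR −0.86, adjusted p = 0.169, and DESeq2 −0.89, adjusted p = 0.232). The enzymes that start leukotriene synthesis gave little signal, with ALOX5 at means of 1.68 normalized counts in both lines and ALOX5AP at 0.622 and 0. LTA4H, which makes leukotriene B4, was abundant in both lines and its estimate was −0.03 ± 0.09 (adjusted p = 0.780).

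Of 11 genes for the later steps of omega-oxidation and for peroxisomal beta-oxidation, all were tested and 2 rose. That is 18.2%, beside 12.2% over all genes tested. ADH7, an alcohol dehydrogenase of squamous epithelium that oxidizes omega-hydroxy fatty acids and retinol, rose from 2.79 ± 3.14 to 170 ± 20.4 normalized counts (5.79 ± 0.52, adjusted p = 2.4e-06). Its KYSE450 values were near the floor, and the estimate ran from 3.83 to 6.43 over 14 alternatives. ALDH3A2, the fatty aldehyde dehydrogenase, rose from 19345 ± 930 to 49782 ± 2476 (1.36 ± 0.10, adjusted p = 2.2e-07). The peroxisomal genes stayed within the fold threshold, EHHADH with 0.05 ± 0.13 and SCP2 with 0.36 ± 0.09 among them.

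Vitamin K and E genes held 7 tested members, of which 2 rose (28.6%, beside 12.2% over all genes tested). NQO1, a quinone reductase, rose from 16625 ± 817 to 107758 ± 3247 (2.70 ± 0.10, adjusted p = 3.9e-10), and TTPA, the tocopherol transfer protein, from 28.9 ± 8.44 to 72.8 ± 9.21 (1.33 ± 0.32, adjusted p = 0.00389, and 0.87 after quantile normalization, inside the fold threshold). VKORC1, the vitamin K epoxide reductase, stood at −0.27 ± 0.18 and GGCX, the carboxylase that uses vitamin K, at −0.62 ± 0.12, inside the fold threshold. Of 13 genes that make the acylceramides to which CYP4F22 contributes, 11 were tested, 2 rose and 3 fell. The share higher was 18.2%, beside 12.2% over all genes tested, of which 5.98% were lower. ABCA12, the lipid transporter of lamellar granules, rose by 2.08 ± 0.27 (adjusted p = 4.7e-05) and ELOVL4, a fatty acid elongase, by 1.07 ± 0.13 (adjusted p = 2.3e-05). FA2H, the 2-hydroxylase, fell by 2.32 (adjusted p = 1.3e-05), ALOXE3, an epidermal lipoxygenase, by 1.71 (adjusted p = 0.00282) and SLC27A4, a fatty acid transporter, by 1.18 (adjusted p = 7.0e-05).

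Nuclear receptors and sterol-regulated factors are known regulators of CYP4F genes in liver. Of 14 such genes 10 were tested, and 2 rose, the retinoid receptors RARB (1.83 ± 0.13, adjusted p = 3.4e-07) and RXRA (1.22 ± 0.11, adjusted p = 2.6e-06). The share higher was 20%, beside 12.2% over all genes tested. SREBF1 was at −0.98 ± 0.15, just inside the fold threshold, and NR1I2, which mediates drug induction of P450 genes, was at 0 in every library.

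**Figure D4:**
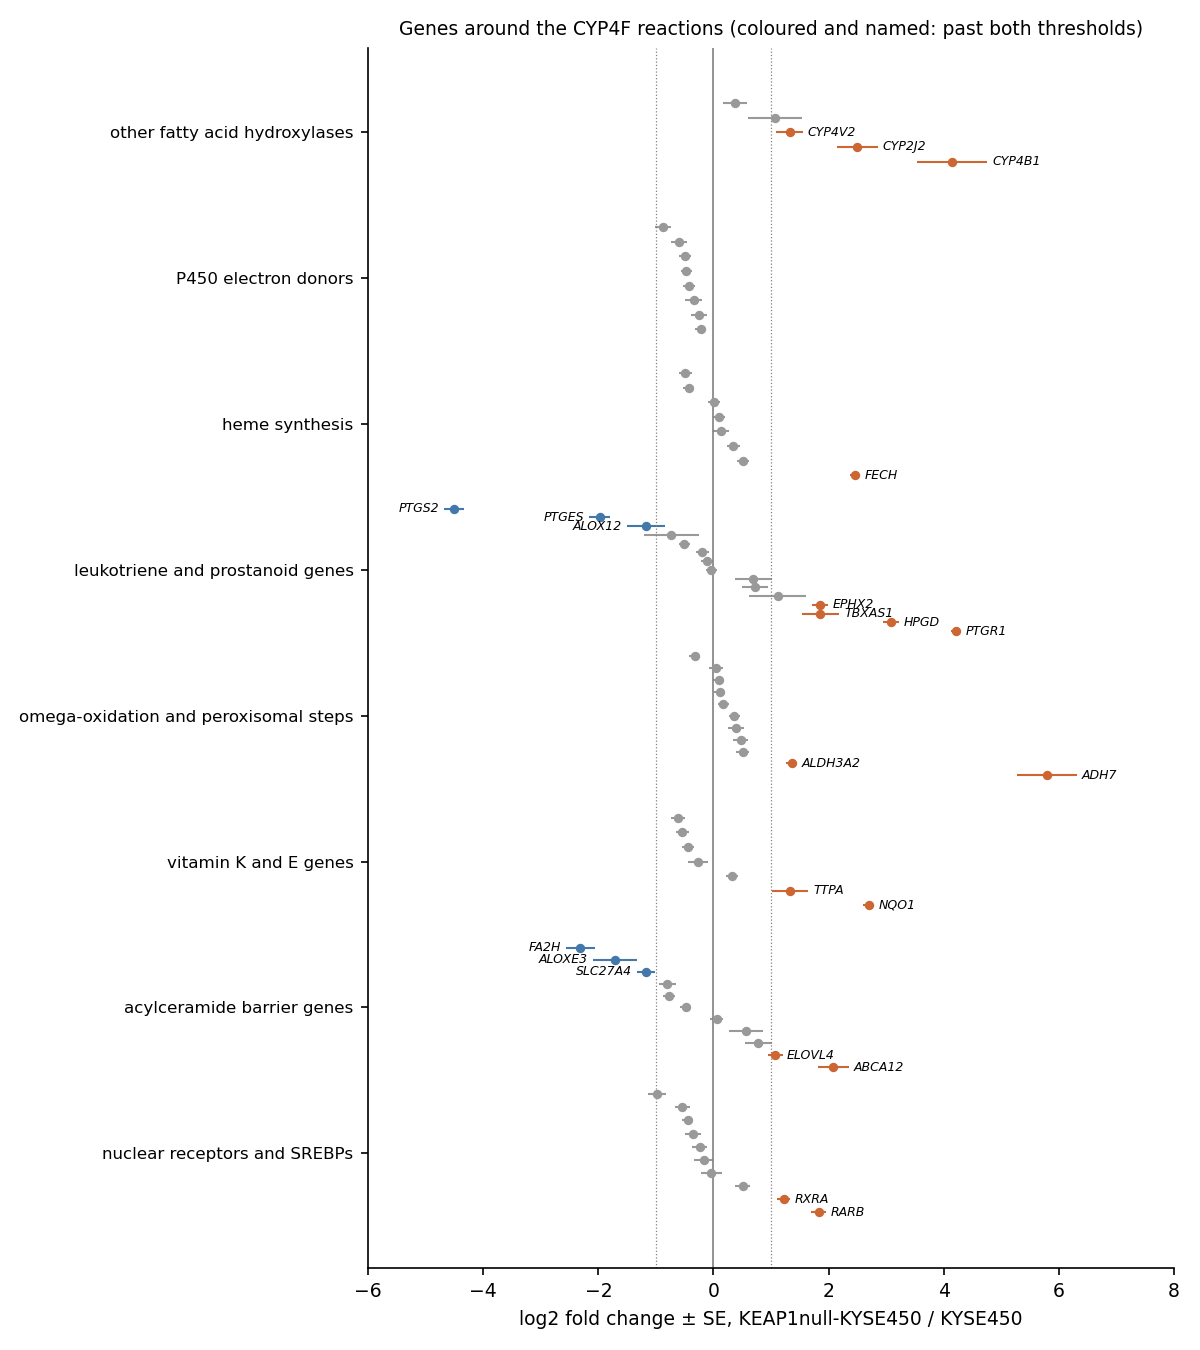
Log2 fold change ± SE (KEAP1null-KYSE450 over KYSE450, horizontal axis) of each tested gene in the lists around the CYP4F reactions, 1 row of genes per list. Genes past both thresholds are coloured and named, orange for higher and blue for lower, and dotted lines mark a log2 fold change of 1 in each direction. The genes listed as electron donors, partner proteins included, all lie between −0.87 and −0.22, while PTGR1 at 4.22 and ADH7 at 5.79 lie farthest to the right.

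Genes whose pattern over the 6 libraries was nearest to each of the leading members were found by the root mean square difference of log2 values after centring, among 12339 candidates. For CYP4F11 these were ST8SIA4, a sialyltransferase (difference 0.195), COLCA1 (0.197), MSC, a basic helix-loop-helix repressor (0.490), CYP39A1 (0.530) and NEFL, a neurofilament subunit (0.533). ST8SIA4 followed CYP4F11 closely, with 99.5, 83.9 and 84.8 normalized counts in KYSE450 and 6892, 6094 and 5720 in KEAP1null-KYSE450, the first library of that line again the highest. For CYP4F3 the nearest were AC121764.1 (0.628), F2RL2, a thrombin receptor (0.767), WNT5A, a Wnt ligand (0.881), and the aldo-keto reductases AKR1C1 (0.897) and AKR1C3 (0.900). The nearest genes to CYP4F3 were less close than those to CYP4F11, and all 5 were higher in KEAP1null-KYSE450. F2RL2 had no read in KYSE450 and 992, 795 and 739 normalized counts in KEAP1null-KYSE450, at least 279.5-fold higher. AKR1C1 and AKR1C3 belong to a family of close copies, so reads may have been exchanged among them. This likeness rests almost wholly on the size of the difference between the lines, which also served to pick the CYP4F genes.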

How the data were processed

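RNA from 3 KYSE450 and 3 KEAP1null-KYSE450 libraries was sequenced by the authors with 150-base reads. By the methods and the submitters' processing notes (FastQC 0.11.5, cutadapt 1.12), reads were aligned to hg38 with STAR 2.6.90c, counted per gene with featureCounts 1.5.1 and normalized. Whether counting used strand is not given in the sources used here. The methods name a RefSeq annotation, whereas the deposited matrix carries Ensembl identifiers. The authors deposited a signal per gene and library, normalized counts. Each value was a whole multiple of 1 step per library (100% of values within 0.1 read). These reads were accepted as recovered for 4 libraries, KYSE450 1 and 3 and KEAP1null-KYSE450 1 and 2, while in the other 2 the step lay too near 1. Reads quoted for those 2 libraries, and sums that include them, rest on the same division without that acceptance. The normalized totals were 54829313 to 57380170 per library. Columns carry the line and no replicate number, so libraries were numbered in column order.

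Values of log2(normalized count + 1) were fitted with limma 3.58.1 in R 4.3.3 (eBayes with trend, two-sided) over genes whose mean was 10 or more, with Benjamini-Hochberg adjustment over all of them. A gene was called when its adjusted p was below 0.05 and its log2 fold change was 1 or more in size. Fold changes on this scale understate those of low genes. The fit was checked on simulated data. Counting intervals are exact binomial intervals (95%) on summed reads, scaled by the normalization. Alternatives were a pseudocount of 0.1 or 10, no minimum, a minimum of 100, rescaling to equal totals, quantile normalization, eBayes without trend, no fold threshold, each library left out, and edgeR 4.0.16 and DESeq2 1.42.0 on the 4 libraries with recovered reads. Lengths, positions and transcripts were from gencode v44 and promoters from RefSeq. The CYP4F genes and all lists were chosen with earlier results of these data known. Genes were named by rule: KEAP1, NFE2L2, POR, the 6 members, called genes of each list (at most 4 per direction, 5 for other CYP genes and neighbours) and the 5 nearest patterns of the most abundant members. Other genes given with values, the cell type markers and genes of the lists that were not called among them, were picked after their values were seen.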

Additional observations from a re-analysis of the deposited data

How the results depend on the processing

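CYP4F11, CYP4F3 and CYP4F12 passed both thresholds in every alternative that tested them, and CYP4F12 was not tested at a minimum mean of 100, which left 2. The log2 fold change of CYP4F11 ranged from 6.23 to 6.58 over 15 alternatives, that of CYP4F3 from 9.08 to 12.15, and that of CYP4F12 from 2.39 to 8.72. Over all genes, 875 rather than 2045 were higher at a minimum mean of 100, and with no fold threshold 4060 were higher and 4251 lower, while 26 genes of the lists were higher and 24 lower. The difference in KEAP1 took the other sign after rescaling to equal totals (0.0158) and after quantile normalization (0.14), and ran from −0.0725 to 0.0403 with single libraries left out (0.0339 without KYSE450 library 1, 0.0403 without KEAP1null-KYSE450 library 2). With the longest coding transcript as length, CYP4F11 was 2.81 times CYP4F3 per kb in KEAP1null-KYSE450, against 2.51 with all exons. Exact copies along CYP4F3 covered 1.88% of positions at 100 bases and 9.13% at 50 bases. Of 40 named genes outside the subfamily, 32 kept their sign and their call or lack of one in every alternative that tested them. KEAP1 changed sign in at least 1. CYP4V2, ALOX12, TTPA, CYP26A1, CYP1B1, RASAL3 and KLF2 kept their sign throughout and lost their call in at least 1. The cause was not tested. No paired analysis was possible because the columns carry no replicate number. Precision is limited by 3 libraries per line, by the single clone, and for CYP4F3 by the 6 reads of the parental line.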
